A study of Mus musculus with 4 samples.

Results

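Mixed NK cell and macrophage profiles were single cell barcodes in MC38 tumors that carried marker genes of both cell types. A barcode was counted as mixed when it held at least 5 unique molecular identifiers (UMIs, 1 for each captured probe molecule) of Ncr1 and Klrb1c together, at most 2 UMIs of Cd3d, Cd3e and Cd3g together, and at least 0.2% of its UMIs on C1qa, C1qb and C1qc. It also had to have at least 500 detected genes and at most 10% mitochondrial UMIs. In all, 607 of 28194 barcodes that passed these last filters were mixed, and 28290 barcodes were deposited. They were set beside 911 single NK cells, which met the same limits for Ncr1, Klrb1c and Cd3 but had under 0.05% C1q, and beside 14035 single macrophages, which had at least 0.2% C1q and no UMI of Ncr1 or Klrb1c. The 5 marker genes lie on the mm10 build at chr7:4337724-4345164 (Ncr1), chr6:128778485-128789215 (Klrb1c), chr4:136895917-136898803 (C1qa), chr4:136880129-136886187 (C1qb) and chr4:136889804-136893065 (C1qc). The cells were thus chosen by their UMIs of Ncr1, Klrb1c, Cd3 and C1q genes, and levels of these genes are given only as a description.

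NK cells are innate lymphocytes that kill target cells with perforin and granzymes and secrete interferon-γ. Ncr1 encodes their activating receptor NKp46 and Klrb1c encodes NK1.1, and both are also carried by ILC1, a related innate lymphocyte. C1qa, C1qb and C1qc encode the chains of complement C1q, which tissue and tumor macrophages make in large amounts, and Cd3 genes mark T cells. Macrophages present IL-15 and other cytokines to NK cells and respond to their interferon-γ. A barcode with both programs may hold 1 cell or more, which the deposited counts do not record.

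The 4 libraries each came from MC38 tumors, a transplanted mouse colon carcinoma, of C57BL/6 mice humanized for CTLA-4 (B-hCTLA-4), a line in which the animals carry the human target of ipilimumab. Per the labels, 500000 tumor cells were placed under the skin, treatment began at about 100 mm3, and tumors of 11 mice per group were pooled into 1 library on day 8, after 3 treatments. Live CD45+ cells were sorted, fixed in formaldehyde and hybridized with barcoded probes by the Chromium Flex protocol, and all libraries were labelled as 1 batch. An age was given for the inbred strains of the study and not repeated for this line. The isotype control group received human IgG1 at 10 mg/kg. The combination group received the anti-human CTLA-4 antibody ipilimumab (human IgG1, 10 mg/kg) and the anti-mouse FcγRII antibody AT130-2 (mouse IgG1 with N297A, 20 mg/kg). For both single-antibody groups the sample title and the treatment field name opposite antibodies. They are therefore called single antibody A (title anti-human CTLA-4, treatment field anti-mouse FcγRII) and single antibody B (the reverse), and no statement below depends on which antibody either received. The article describes other animal numbers, days and doses than the labels. With 1 library per group no test between groups was possible, each group cannot be told apart from its library, and 95% intervals cover counting error only.

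The deposited matrices held 8173, 6390, 6097 and 7630 barcodes and 178178393, 129151823, 142472286 and 196362818 UMIs in isotype control, single antibody A, single antibody B and combination. The filters kept 8148, 6364, 6083 and 7599 of them, and libraries are given in this order below. No full barcode was shared between libraries. Pairs of libraries shared between 712 and 1148 droplets, which were read from the first 16 bases of the barcode, while the last 8 bases name the library.

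Mixed cells numbered 231, 92, 114 and 170. Their share of kept cells was 2.84% in isotype control (exact binomial 95% interval 2.49 to 3.22) and 2.24% in the combination (1.92 to 2.60). Lower shares were found for single antibody B at 1.87% (1.55 to 2.25) and single antibody A at 1.45% (1.17 to 1.77). Isotype control had the highest share and single antibody A the lowest. The ratio of the combination share to that of isotype control was 0.789 (log interval 0.649 to 0.960). This interval spanned 1 with a limit of 10 NK marker UMIs (0.923, 0.701 to 1.22), with a C1q limit of 0.1% (0.833, 0.690 to 1.01) and without shared droplets (0.884, 0.694 to 1.13). Against single antibody A the ratio was 1.55 (1.20 to 1.99), and against single antibody B it was 1.19 with an interval that spans 1 (0.944 to 1.51).

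Measured against cells with NK markers and few Cd3 UMIs, mixed cells were common. These cells numbered 459, 412, 272 and 463, and mixed cells were 50.3% of them in isotype control (45.7 to 55.0) and 36.7% in the combination (32.3 to 41.3). The share was 22.3% (18.4 to 26.7) for single antibody A and 41.9% (36.0 to 48.0) for single antibody B. The order of the libraries by this share was isotype control, single antibody B, combination and single antibody A. The interval of single antibody B overlapped both that of isotype control and that of the combination. The combination to isotype control ratio was 0.730 (0.628 to 0.848). Depth sets how often 5 UMIs are reached, so the cells were also thinned to 4000 UMIs each with a limit of 2 NK marker UMIs, which left out 769, 642, 328 and 787 shallower cells. The shares were then 46.1%, 20.3%, 37.2% and 27.4%, and the combination to isotype control ratio was 0.596 (0.478 to 0.742). The ratio of the combination to single antibody B, 0.876 (0.729 to 1.05) before thinning, was 0.738 (0.568 to 0.959) after it. The ratio of the combination to single antibody A was 1.35 (1.00 to 1.82) after thinning. As a share of kept cells it was 1.37, with an interval that spans 1 (0.975 to 1.93). The lower quartile of depth was 3139, 3602, 3759 and 4370 UMIs in single NK cells and 20442.5 to 25122.5 in mixed cells. Leaving out shallow cells thus fell more on single NK cells than on mixed cells, and unequally between libraries. Its part in the thinned shares and ratios was not tested.

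**Figure D1:**
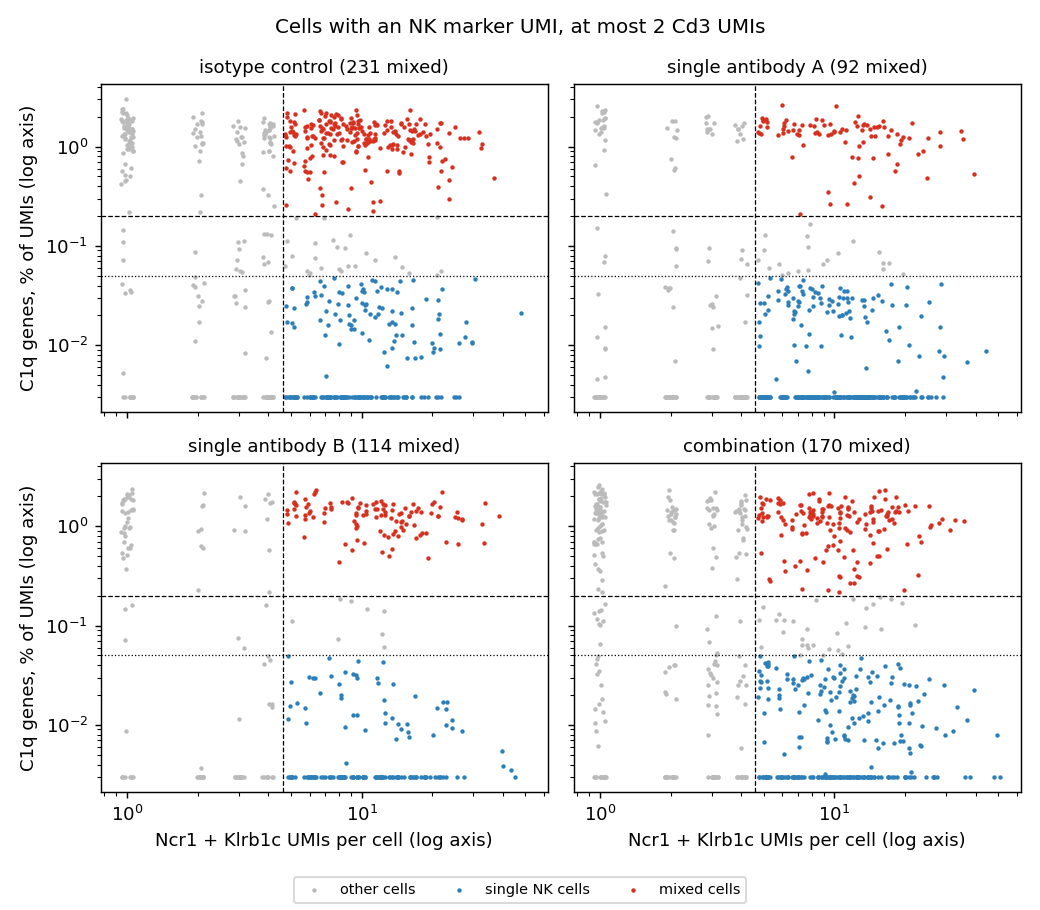
UMIs of Ncr1 and Klrb1c per cell (log axis, points spread slightly sideways) against the percent of UMIs on the 3 C1q genes (log axis, cells without C1q drawn at the bottom) for cells with an NK marker UMI and at most 2 Cd3 UMIs, 1 panel per library. Dashed lines mark the limits for mixed cells and the dotted line that for single NK cells. Mixed cells (231, 92, 114 and 170) form a cloud near 1% C1q, with few cells between the lines.

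Few cells lay near the C1q limit. Among all NK-marker cells, 21 had 0.2% to 0.3% C1q and 31 had 0.1% to 0.2%, and the cells nearest to the limit stood at 0.210% and 0.196%. The median C1q level of the mixed cells was 1.29%, 1.40%, 1.31% and 1.22%, beside 1.48% in single macrophages of isotype control and 1.66% in those of single antibody A. The NK limit cut through more cells. Mixed cells with exactly 5 NK marker UMIs numbered 62, and 72 otherwise alike cells with 4 were left out. At the Cd3 limit, 11 cells had 2 UMIs and 6 cells with 3 were left out.

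C1q above 0.2% was also common in barcodes with T or B cell markers. Among cells with at least 5 Cd3 UMIs and no NK marker UMI, 71.2%, 42.2%, 71.8% and 66.9% held at least 0.2% C1q, at median depths of 24376.0, 11255.5, 27042.5 and 28465.0 UMIs. Single antibody A was the lowest library here as well. In B-marker cells the share was 90.7%, 83.3%, 92.1% and 92.2%, at higher median depths of 40973.0, 34198.0, 34979.0 and 44924.0 UMIs, and 22.2%, 8.33%, 4.32% and 9.80% of them met the NK marker limit. Genes of the B list were also found in single macrophages, at sums of 18.9 to 48.8 CPM. Neutrophil-marker cells, a type that should lack C1q, had at least 1% of their UMIs on S100a8 and S100a9. Of these, 13.4% (6.89 to 22.7), 3.03% (0.369 to 10.5), 13.5% (4.54 to 28.8) and 9.44% (6.31 to 13.4) held at least 0.2% C1q, at median depths between 3205.0 and 3561.0 UMIs. Mixed shares of 22.3% to 50.3% among NK-marker cells were above the neutrophil shares in each library. The part of free RNA in the mixed cells was not tested.

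Mixed barcodes were deep. Their median UMI count was 30344.0, 29460.5, 31194.5 and 35402.5, against 5063.0, 4884.0, 5705.5 and 7841.0 in single NK cells and 17268.5, 21464.0, 20913.0 and 23856.0 in single macrophages. The mixed median exceeded that of single macrophages 1.76-fold, 1.37-fold, 1.49-fold and 1.48-fold. It also exceeded the sum of both single medians in every library, by 1.36-fold, 1.12-fold, 1.17-fold and 1.12-fold. Median detected genes numbered 6566.0, 6304.0, 6500.0 and 6713.5, which was 1.36, 1.20, 1.25 and 1.25 times the single macrophage median. A minimum number of NK marker UMIs is reached more often in deep cells, and the part of the rule in this depth was not tested.

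**Figure D2:**
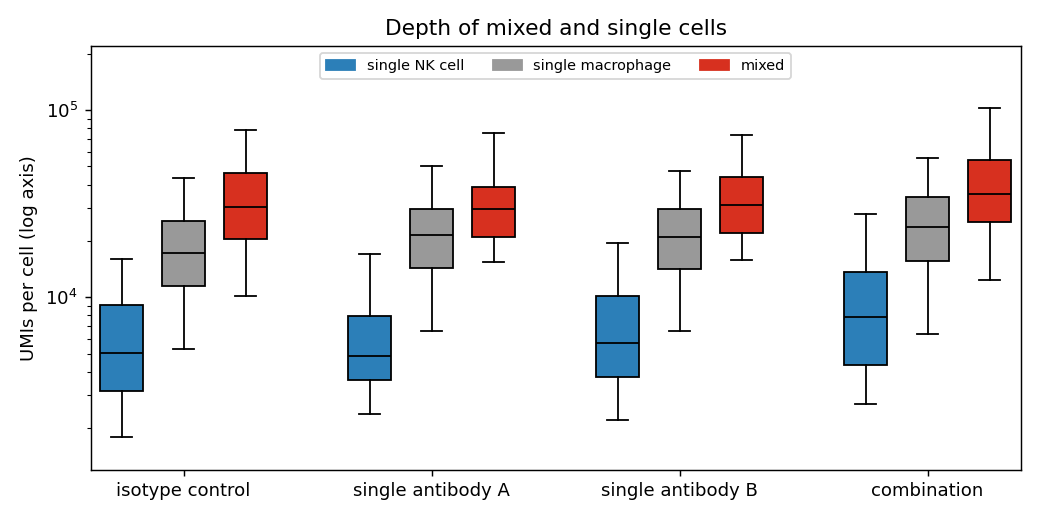
UMIs per cell (log axis) in single NK cells, single macrophages and mixed cells of each library, with boxes from the lower to the upper quartile, a line at the median and whiskers at the 5th and 95th percentiles. Mixed medians between 29460.5 and 35402.5 lie above those of both single classes in all 4 libraries.

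The label was checked with genes that the rule did not use, and both programs were present. The NK marker list held 24 measured genes, and the sum of their levels was 4491, 5627, 5321 and 4373 CPM (UMIs of a gene in a class of cells per 1000000 UMIs of that class) in mixed cells, 25206, 27666, 25213 and 20788 CPM in single NK cells, and 81.2, 83.6, 43.5 and 106 CPM in single macrophages. No member was at 0 in the mixed cells. Counted per cell, with no division by depth, the median NK gene had 1.01, 1.10, 0.995 and 0.873 times as many UMIs in a mixed cell as in a single NK cell. The lowest value was that of the combination, and both classes had been selected by the same minimum of NK marker UMIs. For the 23 macrophage markers the median gene had 1.55, 1.14, 1.29 and 1.35 times as many UMIs in a mixed cell as in a single macrophage. Apoe, which encodes the lipid carrier apolipoprotein E, was the most abundant macrophage marker, at 13837, 13141, 15183 and 9764 CPM in mixed cells.

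Each mixed profile was then described as a weighted sum of the single NK and single macrophage profiles of the same library, with the genes of the rule left out. The fitted NK part was 16.2%, 21.3%, 20.1% and 17.0% of the summed mixed UMIs, and the rest was the macrophage part. Fitted cell by cell, over 1266 genes that differed at least 4-fold between the single classes, the median NK part was 16%, 21.0%, 21.0% and 16.3%, with lower quartiles between 9.0% and 14.5% and upper quartiles between 28.25% and 32.4%. The same fit gave a median of 100.0% for single NK cells and 0.0% for single macrophages in each library, and 95% of single macrophages were at or below 3.5% in every library. In single NK cells the 5th percentile was 61.0%, 91.5%, 100.0% and 66.0%, so some had a fitted macrophage part, and these single cells also supply the reference profiles. The NK part of a mixed cell came to a median of 4470, 5022, 6359 and 5438 UMIs, or 0.883, 1.03, 1.11 and 0.694 times the median single NK cell. The macrophage part came to 23468, 21793, 24640 and 28176 UMIs, or 1.36, 1.02, 1.18 and 1.18 times the median single macrophage.

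Nearly all genes lay close to the sum of both single profiles. Of 4812 genes at 50 CPM or more in the mixed cells or in the fitted sum, averaged over the libraries, 98.4%, 96.9%, 96.7% and 98.1% lay within 1.25-fold of the sum. A gene was called off the sum when it was at least 2-fold above it, or at least 2-fold below it, in 4 of 4 libraries. No gene stood above the sum and 1 stood below it, which is 0.0208% of the genes tested, and a limit of 1.5-fold, added later, gave the same counts. With a fitted NK part of 16.2% to 21.3%, a change confined to that part could stay under these limits in genes that both classes carry. No fit of the macrophage profile alone was set beside these shares. In the smaller deviations that follow, ratios are to the fitted sum, both in CPM of the genes outside the rule. Among all 4812 genes, 13.2% were above the sum in 4 of 4 libraries by any amount and 7.88% were below it.

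The gene below the sum was Retnla, which encodes the secreted protein RELMα of alternatively activated macrophages (chr16:48842551-48844461). Its level was 2.54, 0.310, 0.482 and 1.22 CPM in mixed cells, against 9.28, 104, 74.1 and 139 CPM in single macrophages and at most 2.18 CPM in single NK cells. Few cells carried it. UMIs of Retnla were found in 34, 76, 58 and 140 single macrophages, of which the highest single cell held 42.4%, 25.2%, 28.8% and 15.2%, and in 4, 1, 2 and 7 mixed cells. As shares these were 0.898%, 2.42%, 1.47% and 4.44% of single macrophages and 1.73%, 1.09%, 1.75% and 4.12% of mixed cells. The intervals of both shares overlapped in each library. Whether the call depends on the macrophages with most UMIs was not tested. Without cells in droplets shared between libraries, or with a minimum of 100 CPM, no gene was called.

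The list of Spp1 and hypoxia genes, which mark macrophages of poorly oxygenated tumor regions, stood below the sum throughout. All 6 measured members were below it in 4 of 4 libraries, beside 7.88% of all genes, with median ratios of 0.811, 0.741, 0.765 and 0.898. Spp1, encoding osteopontin, was at 663, 557, 917 and 470 CPM in mixed cells, with ratios of 0.755, 0.776, 0.670 and 0.460. Its level in single NK cells of the combination, 2281 CPM, was higher than in the single macrophages of that library, 769 CPM. Slc2a1, the glucose transporter GLUT1, had ratios of 0.833, 0.712, 0.760 and 0.915, and the vascular growth factor Vegfa had 0.734, 0.703, 0.847 and 0.881. With a limit of 10 NK marker UMIs, 4 of the 6 members remained below in 4 of 4 libraries.

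Of the other macrophage lists, some held genes on both sides of the sum in 4 of 4 libraries and some on 1 side only. Of 23 macrophage markers, 4 were above the sum and 4 below it in 4 of 4 libraries. The extremes were Ms4a7, a membrane protein of tumor macrophages, at 1.09, 1.11, 1.28 and 1.11, and Clec4n, the fungal receptor dectin-2, at 0.97, 0.83, 0.73 and 0.87. Of 7 MHC class II genes, which present peptides to CD4+ T cells, 2 were above and 0 below. H2-DMb1, a chain of the peptide loader H2-DM, had ratios of 1.09, 1.17, 1.00 and 1.08. Of 10 resident-like macrophage genes 4 were below and 0 above, with median ratios of 1.01, 0.673, 0.891 and 0.696 that include members at 0 UMIs. The list's summed level was 1.05, 0.838, 1.07 and 0.939 times the sum. Of the 4 genes below, F13a1, the coagulation factor XIII A chain, stood at 0.73, 0.61, 0.88 and 0.68. Of 14 genes of phagocytosis and Fc receptors 4 were above and 4 below. Axl, a receptor for apoptotic cells, stood at 1.09, 1.06, 1.10 and 1.05, and Cd36, a scavenger receptor, at 0.79, 0.63, 0.89 and 0.86. Of 8 genes of the Hmox1 and Gpnmb list 2 were below and 0 above, with medians of 1.15, 0.796, 0.761 and 0.893, and of 12 genes of the Nos2 inflammatory list 1 was above and 3 below.

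Fcgr2b, which encodes the inhibitory receptor that the anti-mouse FcγRII antibody binds, came from the macrophage side. Its level was 1042, 884, 889 and 875 CPM in mixed cells, 1236, 1211, 1211 and 1103 CPM in single macrophages, and 159, 45.4, 162 and 146 CPM in single NK cells. Its ratios to the sum were 0.98, 0.92, 0.89 and 0.93. The mixed level was highest in isotype control, and the other libraries were close to each other. Ctla4 reads come from probes to the mouse gene. Whether these probes detect the humanized gene was not tested, so the reads are not taken as a measure of the human target. Ctla4 stood at 4.11, 3.41, 8.43 and 7.43 CPM in mixed cells.

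NK genes lay on both sides of the sum. Of 24 NK markers 3 were above it and 1 below it in 4 of 4 libraries, near the 13.2% and 7.88% of all genes. Within single libraries 19, 6, 17 and 22 markers were above the sum, beside 56.5%, 50%, 55.4% and 57.1% of all 4812 genes. The marker medians were 1.13, 0.969, 1.06 and 1.22, and those of all genes 1.01, 1.00, 1.01 and 1.01. Gzma, the gene of granzyme A, had 661, 911, 632 and 602 CPM in mixed cells and 3060, 4364, 2896 and 1723 CPM in single NK cells, with ratios of 1.34, 0.99, 1.10 and 2.06. Prf1, which encodes perforin, had ratios of 0.868, 0.991, 0.855 and 0.877 and was the NK marker below the sum in all libraries. Cd7, a lymphocyte receptor, had the highest mean ratio of the list, at 1.39, 0.89, 1.58 and 1.64, and Cd160 had the lowest, through 0.43 in single antibody A.

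Among 12 NK effector genes 3 were above the sum in 4 of 4 libraries and 1 below. Ifng, the interferon-γ gene, was at 47.0, 59.9, 46.5 and 23.1 CPM in mixed cells, with ratios of 1.13, 1.18, 1.38 and 1.34. Gzmc, encoding granzyme C of strongly stimulated killer cells, was at 1268, 3310, 2216 and 2079 CPM in mixed cells and 15600, 12214, 15591 and 22495 CPM in single NK cells. Its ratios of 0.51, 1.29, 0.72 and 0.55 were under 1 in 3 libraries and above 1 in single antibody A. Tnfrsf9, the costimulatory receptor 4-1BB, showed the same order of sides, with 0.572, 1.19, 0.811 and 0.637. Itga1, an integrin chain typical of ILC1, had 0.821, 1.15, 0.852 and 0.735. In single antibody A the highest single cell held 28.1% of the mixed Itga1 UMIs. Of 10 ILC1 genes 0 were above and 1 below, and of 12 genes of conventional NK cells 0 were above and 2 below. Gzmc has close relatives among the granzyme genes, and Klra genes have close relatives too, so their probe counts are uncertain between family members.

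The list of 31 genes in ligand and receptor pairs of NK cells and macrophages had 5 members above the sum and 1 below it in 4 of 4 libraries, close to the shares of 13.2% and 7.88% among all genes. The receptor Il12rb2 had ratios of 1.20, 1.07, 1.01 and 1.53, and its ligand chain Il12b was at 0, 0, 0.723 and 0.135 CPM. Tigit, an inhibitory receptor, had the highest mean ratio but was at most 3.61 CPM in mixed cells. Of 10 interferon response genes 0 were above and 1 below, and of 9 cell cycle genes 0 were above and 0 below. Within single libraries all 9 cell cycle genes were below the sum in single antibody B, with a median ratio of 0.527, and all 9 were below it in the combination, with a median of 0.885. In single antibody A 8 of 9 were above it (1.29) and in isotype control 4 of 9 were (0.916). Of all genes 44.6% were below the sum in single antibody B, 42.9% in the combination and 50% in single antibody A. Mki67, a gene of dividing cells, was at 209, 225, 122 and 161 CPM.

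**Figure D3:**
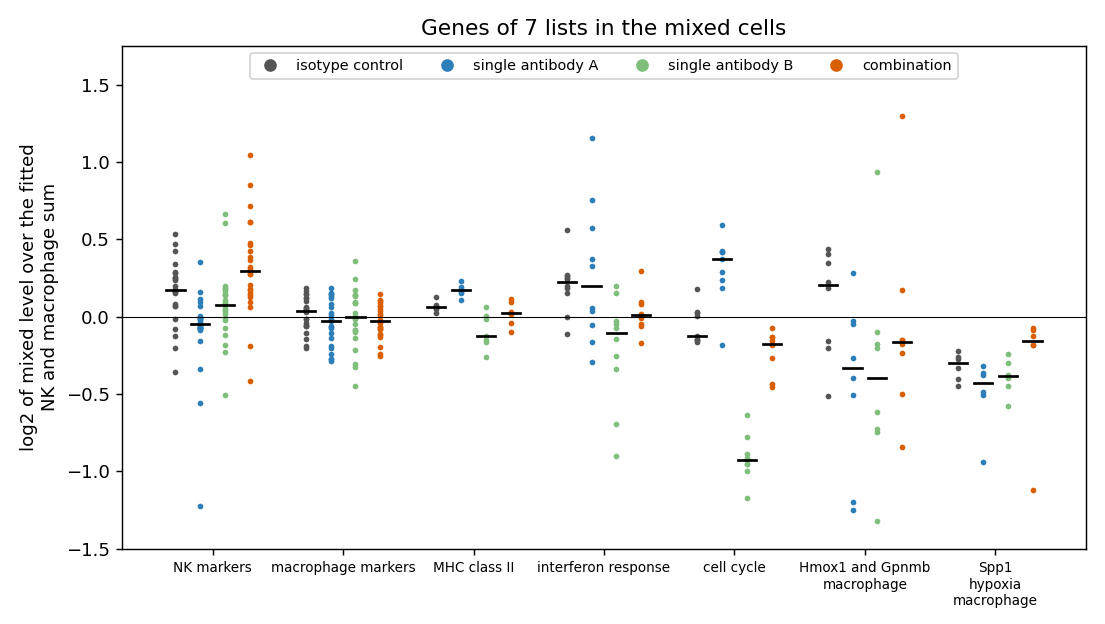
Log2 ratio of the level in mixed cells to the fitted sum of single NK cells and single macrophages, for the genes of 7 lists in each library, where points are genes and black lines are list medians. The Spp1 hypoxia list lies below 0 in 4 of 4 libraries, and the cell cycle list lies below 0 in single antibody B and the combination (median ratios 0.527 and 0.885) and mostly above it in single antibody A (1.29).

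Marker lists of other cell types were summed as well. The T cell list summed to 381, 445, 478 and 380 CPM in mixed cells and 1987, 2166, 2266 and 2080 CPM in single NK cells, led by Trbc1, and Trac, the T cell receptor α constant gene, was at most 4.10 CPM. Of 13 T cell genes 1 was above the sum in all libraries and 1 below. The neutrophil list summed to 194, 123, 107 and 517 CPM, led by Csf3r, the G-CSF receptor, and Ly6g was at 0 in 3 libraries. In the combination this list stood above the single cells, which had 388 CPM in macrophages and 110 CPM in NK cells. Its sum there was 1.49 times the fit and 7 of its 8 genes were above it, and the part of neutrophils in this was not tested. The dendritic cell list summed to 33.2, 46.8, 21.4 and 35.1 CPM and was led by Clec9a, except in single antibody B. Siglech was at 0 in 3 libraries. The B cell list summed to at most 46.2 CPM and was led by Cd79b. The mast cell list summed to at most 58.8 CPM and was led by Kit, and Ms4a2 was at 0 in all libraries. Tumor and stroma genes summed to at most 147 CPM and were led by Pecam1. The monocyte list, at 1356, 1243, 1331 and 1167 CPM, had a higher sum in single NK cells (3080 to 4062 CPM) than in single macrophages (697 to 1231 CPM). The summed levels were 0.628 to 0.851 times the fit for dendritic cells, 0.431 to 1.02 for mast cells, 0.671 to 0.968 for B cells, 0.814 to 1.04 for monocytes, 0.489 to 1.60 for tumor and stroma and 1.02 to 1.14 for type 2 lymphocytes. The dendritic, mast and B cell lists rest on few UMIs.

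Droplets shared between libraries gave a measure of how often separate cells met in 1 droplet. Of 911 single NK cells, 166 (18.2%, 15.8 to 20.9) shared a droplet with a macrophage of another library, or 34, 62, 22 and 48 cells by library. Libraries were pooled after fixation and probe hybridization, before loading, so such pairs came from different tumor samples. Scaled from the number of macrophages in the other libraries to that in the own library, these shares came to 6.25% (4.44 to 8.43), 5.97% (4.69 to 7.42), 5.76% (3.70 to 8.39) and 5.33% (4.02 to 6.85). Mixed cells were 53.5%, 23.5%, 43.2% and 39.4% of mixed and single NK cells together, which was 8.56, 3.94, 7.49 and 7.40 times the scaled shares. The intervals of the scaled shares overlapped, whereas the mixed share of single antibody A lay below those of the other libraries. The scaling takes it that cells of the own library met in droplets as often as cells of other libraries, and this was not tested. Among mixed cells, 19.5%, 22.8%, 17.5% and 17.6% shared a droplet with a macrophage of another library, each within the interval of single NK cells in the same library.

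**Figure D4:**
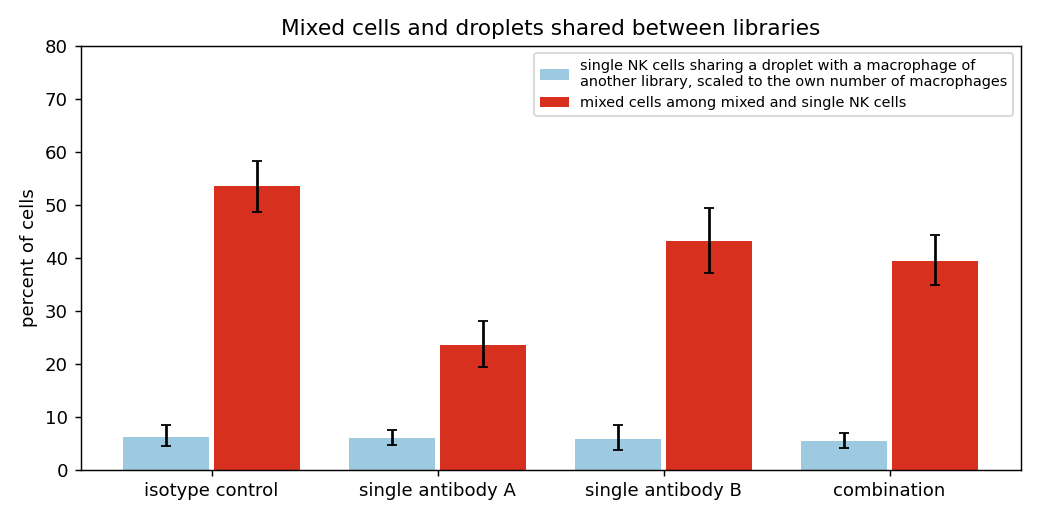
Percent of single NK cells that shared a droplet with a macrophage of another library, scaled to the number of macrophages in the own library (light bars), and percent of mixed cells among mixed and single NK cells (red bars), with 95% exact binomial intervals that cover counting error only. The red bars (23.5% to 53.5%) stand above the light bars (5.33% to 6.25%) in all 4 libraries.

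The question of what the combination changed in these cells was described with summed CPM. Of 4905 genes at 50 CPM or more in isotype control or combination, 88 were at least 2-fold higher in the combination (1.79%) and 21 at least 2-fold lower (0.428%), and the median ratio of all these genes was 0.945. Of the 88 genes, 84 were also above both single-antibody libraries, and all 21 lower genes were below both. The minimum could be met in 1 group alone, and 25 of the higher genes and 1 of the lower had a mean under 50 CPM over the 4 libraries, among them Procr, Slc7a11, Slpi, S100a8, Cav1 and P2ry13, which are described next. With that mean as the minimum 63 genes were higher (1.34%) and 20 lower (0.425%) of 4707. The same libraries gave the single macrophages and single NK cells set beside them.

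Nos2, which encodes the inducible nitric oxide synthase of inflammatory macrophages (chr11:78920787-78960254), stood well above isotype control. It was at 58.2, 188, 12.0 and 757 CPM in mixed cells, a combination to isotype control ratio of 13 (exact interval 11.8 to 14.3). Single macrophages had 94.8, 216, 62.0 and 876 CPM, a ratio of 9.24. Single NK cells had 6.74, 38.8, 173 and 161 CPM, from only 4, 7, 1 and 28 cells with a UMI. The highest of these cells held 6, 55, 199 and 155 UMIs. Cells with at least 3 Nos2 UMIs after thinning to 10000 UMIs were 6.03%, 10.3%, 1.01% and 37.6% of mixed cells and 7.54%, 13.4%, 5.77% and 41.6% of single macrophages. Thinning left out 12, 1, 0 and 5 shallower mixed cells and 725, 365, 473 and 343 shallower single macrophages. The thinned shares thus set nearly all mixed cells beside the deeper macrophages only. Without thinning the shares with at least 3 UMIs were 13.9%, 19.6%, 4.39% and 52.4% of mixed cells. Those of single macrophages were then 11.6%, 19.1%, 9.19% and 49.6%, below the mixed share except in single antibody B. The order of the libraries was the same in both classes, with the combination highest. Under other limits of the rule the Nos2 ratio ranged from 10.4 to 26.3.

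Procr, the protein C receptor, was at 12.8, 12.7, 14.5 and 103 CPM (8.01-fold, with 9.33-fold in single macrophages). Its ratio ranged from 7.04 with a C1q limit of 0.4% to 14.6 without shared droplets. Slc7a11, the cystine transporter of the antioxidant response, was at 13.5, 24.5, 10.6 and 91.2 CPM (6.74-fold and 5.40-fold). C3, the central complement component, was at 194, 300, 132 and 927 CPM (4.77-fold and 4.18-fold). The other libraries lay well below the combination for each of these 3 genes.

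The scavenger receptor Cd36 was 4.75-fold higher in the combination, the formyl peptide receptor Fpr2 4.43-fold and the caveolin gene Cav1 4.78-fold, beside 4.33-fold, 3.89-fold and 3.39-fold in single macrophages. Under the other limits the Cd36 ratio went down to 3.15 and the Cav1 ratio up to 9.13. Ptgs2, which encodes the prostaglandin enzyme COX-2, was 4.73-fold higher, though 1 cell held 32.9% of its UMIs in the combination. Slpi, a secreted protease inhibitor, was at 12.2, 36.9, 8.19 and 91.9 CPM (7.53-fold). Its ratio ranged from 3.59 without shared droplets to 11.5 where no Cd3 UMI was allowed. S100a8, a calcium-binding protein abundant in neutrophils, was at 24.4, 3.41, 5.06 and 124 CPM (5.09-fold), with 24.9% of the combination UMIs in 1 of 49 cells that held it. Its ratio was 1.68 with a limit of 3 NK marker UMIs and 2.13 without shared droplets. The neutrophil list as a whole was also highest in the combination, at 517 CPM, and its part in the S100a8 value was not tested.

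The heat shock genes Hspa1a and Hspa1b had the lowest ratios. Hspa1a was at 378, 253, 172 and 60.4 CPM in mixed cells (0.160-fold, interval 0.145 to 0.177) and 514, 423, 443 and 94.7 CPM in single macrophages (0.184-fold). Hspa1b was at 466, 272, 214 and 86.1 CPM (0.185-fold). They encode near-identical proteins, so their probe counts are uncertain between the pair, and dissociation of tissue is known to raise them. Of the 8 genes of the dissociation stress list these were the only members past 2-fold, and Fos, Jun and the rest were not.

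Fcrls, an Fc receptor-like gene, was at 871, 641, 1112 and 266 CPM (0.305-fold, with 0.263-fold in single macrophages). P2ry12 and P2ry13, nucleotide receptors, were both 0.414-fold. Cd33, an inhibitory sialic acid receptor, was 0.416-fold, and Lyl1, a transcription factor, was 0.387-fold. Tmem176a and Tmem176b, membrane proteins of antigen-presenting cells, were 0.414-fold and 0.430-fold, and Gpr183, an oxysterol receptor that guides migration, was 0.430-fold. In single NK cells Tmem176a, Tmem176b and Gpr183 had ratios of 1.05, 1.11 and 1.11, and in single macrophages 0.271, 0.303 and 0.342.

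**Figure D5:**
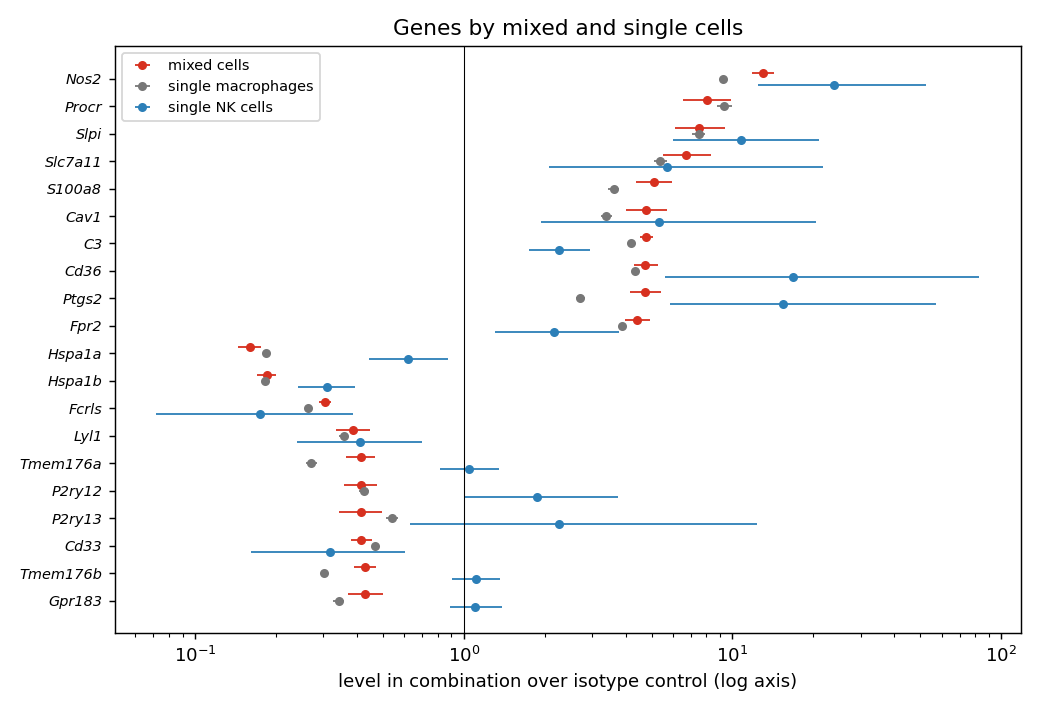
Combination to isotype control ratio of summed CPM (log axis) for 20 genes in mixed cells, single macrophages and single NK cells, with exact Poisson intervals that cover counting error only. Ratios in mixed cells, from 0.160 (Hspa1a) to 13 (Nos2), lie on the same side of 1 as those in single macrophages. Single NK values of Procr and S100a8 are not drawn because isotype control was at 0.

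By lists, 7 of 12 measured Nos2 inflammatory genes were at least 2-fold higher in the combination (median ratio 2.24). Among members with a mean of at least 50 CPM over the 4 libraries it was 5 of 9 (median 2.07), beside 1.34% of all 4707 such genes above, 0.425% below and a median of 0.946. Cxcl9, an interferon-induced chemokine gene of the list, was at 748, 1557, 490 and 1805 CPM. Of 10 measured resident-like genes 5 were at least 2-fold lower and 1 was higher (median 0.483), and of the 7 with that mean level 4 were lower and 1 was higher. These 4 were Cbr2, F13a1, Gas6, a ligand of Axl, and Selenop, a selenium transport protein at 1359, 1111, 1295 and 657 CPM. The higher one was the chemokine gene Ccl8. The 7 MHC class II genes had a median ratio of 1.13, the 10 interferon response genes 1.06 and the 23 macrophage markers 1.01, with 0 members past 2-fold in either direction. Hmox1, the heme-degrading enzyme, was 2.42-fold higher, as were 3 of 8 genes of its list by at least 2-fold (median 1.78, and 1 of 4 with that mean level), and 0 of 6 genes of the Spp1 hypoxia list were past 2-fold (median 1.32).

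None of the 24 NK markers was past 2-fold, and their median ratio was 0.912. Of 10 measured ILC1 genes 2, Tnfrsf9 and Il7r, were at least 2-fold higher (median 1.32), and of the 4 with a mean of at least 50 CPM 1 was (median 1.07). Pdcd1, the gene of the inhibitory receptor PD-1, was at 12.7, 22.6, 22.9 and 53.2 CPM in mixed cells, 4.20-fold higher, and was 5.31-fold higher in single NK cells. It was named after its values were seen and met the minimum of 50 CPM in the combination alone. In isotype control 17 mixed cells held it, and 1 cell held 42.5% of its UMIs in single antibody A. The chemokine gene Ccl5 was 2.28-fold higher in mixed cells (956, 1451, 755 and 2178 CPM), 4.89-fold in single macrophages and 0.77-fold in single NK cells. Tnfrsf9 was 2.19-fold higher in mixed cells, 3.89-fold in single macrophages and 1.5-fold in single NK cells. Il7r, the IL-7 receptor chain, was 2.23-fold, 1.83-fold and 1.37-fold higher. In mixed cells it too met the minimum in the combination alone. Ifng was 0.492-fold in mixed cells and 0.383-fold in single NK cells, but was under the minimum level. Gzma was 0.911-fold in mixed cells and 0.563-fold in single NK cells. Granzyme genes Gzmd, Gzme and Gzmf rested on few cells and were 4.36-fold, 6.22-fold and 19.2-fold higher in mixed cells, beside 4.34-fold, 3.78-fold and 7.87-fold in single NK cells. Gzmd was at 33.2, 468, 57.1 and 145 CPM and Gzme at 11.5, 184, 17.8 and 71.4 CPM, both highest in single antibody A. Gzmf was at 14.3, 311, 19.3 and 273 CPM, and 1 cell held between 61.2% and 93.2% of its UMIs in each library. These 3 close relatives were named after their values were seen, and each was under 50 CPM in the mixed cells of isotype control.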

How the data were processed

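The authors deposited UMI counts per gene and cell, without normalization, for 19059 genes in 4 libraries of CD45+ tumor cells. The counts came from Cell Ranger, version 7.0.0 in the submitters' processing notes and 7.2.0 in the matrix headers, on mm10. The matrices still held 25, 26, 14 and 31 barcodes that failed the filters used here. Barcodes and gene names came from the deposited lists. Coordinates are those of GENCODE M21 on GRCm38, matched by Ensembl identifier.

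Cells with at least 500 genes and at most 10% mitochondrial UMIs were kept. No doublet caller was run, because mixed barcodes were the object. Counts were summed per class and library and divided by the class total (CPM). The sum of both single profiles was fitted by Poisson maximum likelihood with the genes of the rule left out, and tested on simulated data. With 1 library per group no test was made. Intervals at the 95% level are exact binomial for shares, log intervals for ratios of shares and exact conditional Poisson for ratios of counts. Thinned values are means of 20 draws. Python 3.11.15, numpy 2.4.6, scipy 1.17.1 and pandas 2.3.3 were used.

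Of 265 list entries in 23 lists, 260 were measured, and a further list gene is not reported here. Named are extremes of the lists, genes off the sum, and the 10 highest and 10 lowest combination to isotype control ratios past 2-fold that lay beyond both single antibodies, and others were chosen after their values were seen. Members and lists were chosen with earlier results of these data known. Alternatives were other limits of the rule, other filters and minimum levels, thinning, another scaling, and cells of shared droplets left out. List members taken whole or by their mean level, and the Nos2 list without 1 NK cell per library, were added after the data were seen.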

Additional observations from a re-analysis of the deposited data

Results flagged for a closer look

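A pair of lists stood on opposite sides of the fitted sum in single antibody A and single antibody B, by at least 1.2-fold each way and with a summed level of at least 500 CPM in every library. The cell cycle list had a summed level 1.22 times the sum in single antibody A and 0.530 times the sum in single antibody B. The Nos2 inflammatory list had 1.23 times and 0.831 times. Without the single NK cell with most Nos2 UMIs in each library, which held 199 in single antibody B, it had 1.23 times and 0.871 times, so the 1.2-fold distance was not reached in single antibody B. Isotype control and the combination had 0.933 and 0.862 for cell cycle and 1.06 and 1.01 for the Nos2 list. The difference between libraries was not tested, and with 1 library per group it cannot be told apart from differences between libraries.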

How the results depend on the processing

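No paired analysis was possible because each group has 1 library. Other limits for NK markers, C1q and Cd3, stricter cell filters and leaving out shared droplets moved the number of mixed cells from 607 to between 330 and 726. Of 67 recomputed values of the main results, 63 stayed within counting error, the spread between libraries or 1.5 times the count, and 0 turned direction. The others were the combination to isotype control ratio of the mixed share of NK-marker cells, 0.596 after thinning to 4000 UMIs, the genes past 2-fold, 164 instead of 109 at a minimum of 20 CPM, and the genes off the sum, 0 instead of 1 at a minimum of 100 CPM and without shared droplets. The interval of the combination to isotype control ratio of the mixed share of kept cells spanned 1 with 10 NK marker UMIs, a C1q limit of 0.1% and without shared droplets. Ratios of the 20 named genes kept their direction in 140 of 140 cases. These genes were chosen by their extreme ratios in the same data and recomputed in overlapping cells, so a turn of direction was hardly possible. However, Nos2 (10.4 to 26.3), Procr (7.04 to 14.6), Cav1 (4.32 to 9.13), Slpi (3.59 to 11.5), Cd36 (3.15 to 5.23) and S100a8 (1.68 to 7.53) moved by over 1.5-fold. Of 148 recomputed values of single genes and lists, 31 moved beyond counting error. The cause of these shifts was not tested. Mixed cells numbered only 92 in single antibody A, so values of genes under about 50 CPM there rest on few UMIs, and genes carried by a few cells are the least certain.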
